A study of Homo sapiens with 12 samples.

Results

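The 10 genes described here encode subunits of the human N-terminal acetyltransferases, the Nat enzymes. They were taken by symbol, matched to gene ID: NAA10, NAA15, NAA16, HYPK and NAA50 of the NatA group, NAA20 and NAA25 of NatB, NAA30 and NAA35 of NatC, and NAA40, which is NatD. All 10 were among the 25714 genes of the Huh-7 count table and the 25720 genes of the Hep-3B count table, and all 10 passed the filter on low counts in both. Bulk RNA was sequenced from rRNA-depleted directional libraries of 4 groups of 3: Huh-7 cells transfected with an siRNA against ARD1, Huh-7 cells with a negative control siRNA, Hep-3B cells with the ARD1 siRNA, and Hep-3B cells with the negative control siRNA. ARD1 is the older name of NAA10, and both cell lines are established lines labelled as hepatoma cells. The sources used here name neither the siRNA sequences nor the dose or the time after transfection, and all 12 libraries were transfected, so no untransfected level was measured.

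N-terminal acetyltransferases move an acetyl group from acetyl-CoA to the first amino acid of a protein, mostly while the chain is still leaving the ribosome. Each complex reads the first residues of its substrates. NatA takes the small residues that are exposed once the initiator methionine has been removed, NatB takes methionine followed by an acidic or amide residue, and NatC takes methionine followed by a hydrophobic residue. NatA is built on NAA15, the auxiliary subunit that holds the catalytic subunit NAA10 and binds the ribosome, while NAA16 is a paralog of NAA15 that can take its place. HYPK is a small protein that binds NatA and modulates its activity, and NAA50 is a catalytic subunit with its own substrates that sits on the same scaffold and is also called NatE. NAA20 and NAA30 are the catalytic subunits of NatB and NatC, NAA25 and NAA35 are their auxiliary partners, and NAA40 works without a partner on histone N termini.

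The libraries held 17327615 to 25960237 counts each. In Huh-7, 6388 of 15919 genes tested differed between siARD1 and control (40.1%), and in the libraries labelled Hep-3B 5070 of 15762 did (32.2%), by edgeR's quasi-likelihood test at a Benjamini-Hochberg adjusted p under 0.05. Of the Huh-7 calls 52.9% were higher after siARD1, or 39.7% with upper-quartile scaling. The 10 hepatoma markers, which include ALB, AFP and APOA1, summed to 26420 to 30710 CPM (read counts scaled to library size) in Huh-7 siARD1 libraries and to 34060 to 35560 CPM in Huh-7 control libraries. In the libraries labelled Hep-3B the same sum was 233.6 to 252.9 CPM after siARD1 and 435.1 to 523.4 CPM in controls, and TTR was at 0 in all 3 siARD1 libraries. These libraries therefore lacked most of the liver transcripts of the labelled line, and below they are called Hep-3B by their label only. Markers of fibroblasts, endothelium, leukocytes and keratinocytes each summed to at most 36.9 CPM in any library. Among control libraries, Hep-3B replicate 1 stood apart, with a chi-square per gene of 9.14 and 10.3 against replicates 2 and 3, which gave 4.06 against each other; Hep-3B siARD1 replicates 2 and 3 gave 9.76, and no pair of libraries agreed within sampling noise. Bulk RNA cannot tell fewer cells of a type from less RNA per cell.

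The upstream sequences of NAA15, NAA50, NAA16 and NAA40 are shown because the first 3 rose together after siARD1 in Hep-3B and NAA40 fell in both lines. Each is the 250 bases before a RefSeq transcription start in GRCh38.p14, written 5′ to 3′ on the gene's strand. They lie at chr4:139301255-139301504 (plus strand), chr3:113746250-113746499 (minus strand), chr13:41311017-41311266 (plus strand) and chr11:63938752-63939001 (plus strand). Capitals mark matches, on either strand, to the motifs searched.
NAA15: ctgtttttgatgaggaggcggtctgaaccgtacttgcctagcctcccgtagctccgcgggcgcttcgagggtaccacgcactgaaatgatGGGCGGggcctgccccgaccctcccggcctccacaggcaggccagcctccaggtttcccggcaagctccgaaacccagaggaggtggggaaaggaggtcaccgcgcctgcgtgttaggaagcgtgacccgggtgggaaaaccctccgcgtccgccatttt
NAA50: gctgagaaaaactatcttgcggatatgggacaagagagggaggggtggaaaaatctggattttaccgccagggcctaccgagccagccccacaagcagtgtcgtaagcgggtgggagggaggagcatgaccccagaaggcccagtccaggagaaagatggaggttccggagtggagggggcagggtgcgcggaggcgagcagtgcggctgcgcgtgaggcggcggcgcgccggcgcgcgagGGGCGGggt
NAA16: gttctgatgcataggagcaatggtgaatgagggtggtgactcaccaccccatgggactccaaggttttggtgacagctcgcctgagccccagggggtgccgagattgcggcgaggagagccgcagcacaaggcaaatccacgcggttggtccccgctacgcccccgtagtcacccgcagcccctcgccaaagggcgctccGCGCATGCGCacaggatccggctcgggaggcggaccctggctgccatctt
NAA40: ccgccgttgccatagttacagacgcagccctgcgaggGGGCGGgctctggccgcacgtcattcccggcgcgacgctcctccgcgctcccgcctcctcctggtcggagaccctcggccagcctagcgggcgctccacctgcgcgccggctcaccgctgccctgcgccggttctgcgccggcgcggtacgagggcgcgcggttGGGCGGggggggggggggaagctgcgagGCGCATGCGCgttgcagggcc

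The 9 motifs were the CCAAT box (CCAAT), the GC box (GGGCGG), the ETS motif (CCGGAAG), the E-box (CACGTG), the cAMP response element (TGACGTCA), the ATF4 element (TGATGNAA), the NRF2 element (TGACNNNGC), the endoplasmic reticulum stress element (which contains the CCAAT box) and the NRF1 motif, each on both strands. The GC box was found in NAA15, in NAA50 and in NAA40, and 42.6% of 35116 RefSeq promoters of the same length held it. The NRF1 motif was found in NAA16, 50 bases before the RefSeq start, and in NAA40, 21 bases before it. In each it is the run of capitals nearest the end, and 1.03% of promoters held it. Each of the 4 sequences runs past the gene start of the GENCODE annotation. Both NRF1 matches and the GC box of NAA50 lie inside the GENCODE gene bounds. None of the 4 sequences held the ATF4 element, the NRF2 element, the cAMP response element or the endoplasmic reticulum stress element, which were present in 3.14%, 10.9%, 1.65% and 0.074% of promoters. No motif of this set was common to NAA15, NAA50 and NAA16. Exact matches in such short sequences cannot show whether genes share a regulator, and this was not tested. In all, 7 of the 10 members matched an entry of the promoter table. NAA30, which also rose in Hep-3B, had no entry and was not searched.

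The siRNA target was depleted in both lines and further in Huh-7. NAA10 (ENSG00000102030), the catalytic subunit of NatA, lies on the minus strand of chromosome X at 153929242 to 153935223 (GRCh38, GENCODE annotation). In Huh-7 it was at 13.2, 9.86 and 9.995 CPM in the siARD1 libraries, against 165.5, 155.5 and 200.2 CPM in the control libraries. No siARD1 library came near a control. The mean was 11.01 ± 1.87 CPM after siARD1 and 174 ± 23.4 CPM in controls (SD, n = 3 each), so 6.34% of the control level was left (95% interval 5.30% to 7.58%), with a log2 change of -3.98 (SE 0.13, edgeR adjusted p = 1.66e-08). In Hep-3B NAA10 was at 10.9, 15.6 and 14.4 CPM after siARD1, against 48.4, 58.7 and 58.7 CPM in controls. The mean was 13.6 ± 2.47 CPM after siARD1 and 55.3 ± 5.94 CPM in controls, so 24.9% was left (21.2% to 29.3%), with a log2 change of -2.01 (SE 0.12, adjusted p = 1.36e-07). Among genes at a mean of at least 5 CPM, NAA10 had the deepest fall of 11156 genes in Huh-7, where the next was -2.61, and of 10951 genes in Hep-3B, where the next was -1.66.

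**Figure D1:**
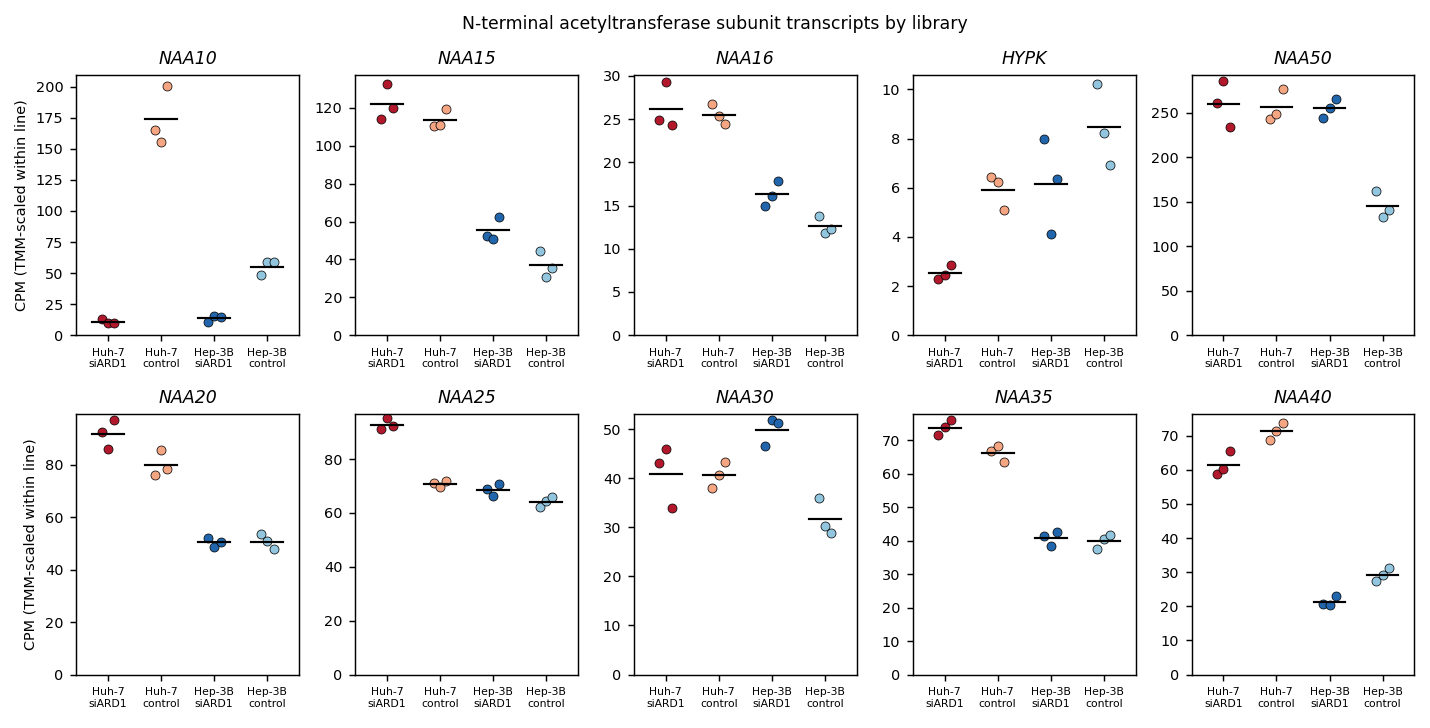
Level of each of the 10 subunits in every library, in CPM scaled within a line on an axis from 0, with siARD1 left of control in each line; points are libraries and bars are group means. NAA10 sits at 9.86 to 13.2 CPM in Huh-7 siARD1 libraries, below its controls at 155.5 to 200.2 CPM, while NAA50 is raised by siARD1 in Hep-3B and overlaps its controls in Huh-7.

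The fall in NAA10 was deeper in Huh-7 than in Hep-3B. The difference of the log2 responses, Huh-7 minus Hep-3B, was -2.0 (SE 0.22, adjusted p = 1.56e-05) in one edgeR fit of all 12 libraries, in which 31.4% of 17122 genes differed between the lines in their response. On the scale of the joint fit NAA10 stood at 165 ± 23.3 CPM in Huh-7 controls and 58.8 ± 6.23 CPM in Hep-3B controls. Per kilobase of exon it stood at 2.18 ± 0.371 CPM after siARD1 and 34.8 ± 4.92 CPM in controls in Huh-7. In Hep-3B it stood at 3.06 ± 0.559 and 12.4 ± 1.31 CPM per kilobase in the same order. The residual levels of the lines were not tested against each other. Reads from NAA10 can be shared with its neighbour ARHGAP4 on the same strand, since 10.1% of its exon bases and 24.6% of the 60-base runs of its principal transcript also occur there. ARHGAP4 averaged 0.832 CPM in Huh-7 siARD1 libraries and 0.998 CPM in Huh-7 controls, and 1.81 CPM in Hep-3B siARD1 libraries and 2.16 CPM in Hep-3B controls, and passed the test in neither line.

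NAA11, a paralog of NAA10 known mostly from testis that can also pair with NAA15, was counted in Huh-7. It was at 15.8, 16.97 and 12.2 CPM after siARD1, against 15.1, 11.7 and 12.2 CPM in controls. The groups overlapped, and the log2 change of 0.21 (95% interval -0.04 to 0.46) did not pass the test (edgeR adjusted p = 0.195), although it passed without siARD1 replicate 3 (0.34, adjusted p = 0.0261). Leaving out each library in turn gave 0.11 to 0.34, at adjusted p up to 0.551. The NAA10 and NAA11 coding sequences were 83.2% identical with 0 shared runs of 60 bases. Per kilobase of exon NAA11 averaged 5.54 ± 0.919 CPM after siARD1 and 4.82 ± 0.679 CPM in controls. NAA11 was absent from the Hep-3B count table, so it could not be followed there.

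Of the NatA partners, NAA15, NAA16 and NAA50 rose in Hep-3B and did not pass the test in Huh-7, while HYPK fell in Huh-7. NAA15 (ENSG00000164134; chromosome 4, 139301455 to 139420033, plus strand), the scaffold of NatA, was at 52.5, 50.8 and 62.6 CPM in Hep-3B siARD1 libraries, against 44.4, 31.0 and 35.3 CPM in controls. The groups did not overlap, with control replicate 1 the nearest to the siARD1 libraries. NAA15 rose to 55.3 ± 6.41 CPM after siARD1, against 36.9 ± 6.84 CPM in controls (SD, n = 3 each), a log2 change of 0.58 (SE 0.12, edgeR adjusted p = 0.00321). In Huh-7 it averaged 122 ± 9.43 CPM after siARD1 and 114 ± 5.28 CPM in controls, and the log2 change of 0.10 (95% interval -0.01 to 0.22, adjusted p = 0.175) did not pass. The difference between the lines was -0.49 (adjusted p = 0.0228), and it missed the threshold without Huh-7 siARD1 replicate 1 (0.0540), without Huh-7 siARD1 replicate 3 (0.0614) and without Hep-3B control replicate 3 (0.0681).

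NAA16 (ENSG00000172766; chromosome 13, 41311205 to 41377030, plus strand), the paralog that can replace NAA15, followed it at a lower level. It was at 14.95, 16.1 and 17.8 CPM in Hep-3B siARD1 libraries, against 13.7, 11.8 and 12.2 CPM in controls, with no overlap. Its log2 change was 0.37 (SE 0.11, edgeR adjusted p = 0.0172), and it missed the threshold without control replicate 2 (0.0715), control replicate 3 (0.0542) or siARD1 replicate 3 (0.0913). In Huh-7 NAA16 averaged 26.2 ± 2.71 CPM after siARD1 and 25.5 ± 1.17 CPM in controls, a log2 change of 0.04 (95% interval -0.13 to 0.21). Its difference between the lines, -0.35, did not pass (adjusted p = 0.0611), but did without Huh-7 siARD1 replicate 2 (0.0269), without Hep-3B control replicate 1 (0.0410) or without Hep-3B siARD1 replicate 1 (0.0444). Leaving out 1 library gave -0.44 to -0.28, at adjusted p up to 0.176. The coding sequences of NAA15 and NAA16 were 69.6% identical, with 0 shared runs of 60 bases.

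NAA50 (ENSG00000121579; chromosome 3, 113716460 to 113746300, minus strand), the NatE catalytic subunit, had the largest rise of the 10 members. In Hep-3B it was at 244, 256 and 265 CPM after siARD1, against 161.5, 132.5 and 140.6 CPM in controls. Every siARD1 library lay well above every control, and the log2 change was 0.81 (SE 0.07, edgeR adjusted p = 1.16e-06), or 176% of the control level (160% to 194%). In Huh-7 the libraries were at 260.2, 285 and 234 CPM after siARD1, against 242, 248 and 276 CPM in controls. There the groups overlapped and the log2 change was 0.02 (95% interval -0.11 to 0.15). The difference between the lines was -0.81 (SE 0.11, adjusted p = 3.59e-06).

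HYPK (ENSG00000242028; chromosome 15, 43796142 to 43803043, plus strand), the small NatA-binding protein, went the other way. In Huh-7 it was at 2.27, 2.44 and 2.88 CPM after siARD1, against 6.43, 6.23 and 5.08 CPM in controls, with no overlap. It fell to 2.53 ± 0.313 CPM after siARD1, against 5.91 ± 0.725 CPM in controls, a log2 change of -1.22 (SE 0.18, edgeR adjusted p = 1.35e-05). In Hep-3B it averaged 6.16 ± 1.94 CPM after siARD1 and 8.46 ± 1.65 CPM in controls, and the log2 change of -0.48 did not pass (adjusted p = 0.103), although it did without siARD1 replicate 1 (-0.69, adjusted p = 0.0269). Without siARD1 replicate 2 it was -0.25, the smallest of the fits that left out 1 library, and without control replicate 1 the adjusted p was 0.321. The difference between the lines, -0.76, passed narrowly (adjusted p = 0.0466) and was lost in 8 of the 12 fits that each left out 1 library, at adjusted p up to 0.154. HYPK counts are uncertain. Its exons share 39% of their bases with SERF2 on the same strand, and the sources used here do not say how reads that match both genes were counted. SERF2, a small EDRK-rich factor, averaged 184 CPM in Huh-7 siARD1 libraries and 210 CPM in Huh-7 controls (log2 change -0.19, adjusted p = 0.0229).

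NatB changed in Huh-7. NAA25 (ENSG00000111300; chromosome 12, 112026689 to 112109022, minus strand), its auxiliary subunit, was at 91.0, 95.1 and 92.2 CPM after siARD1, against 71.0, 69.7 and 72.0 CPM in controls. The siARD1 libraries all stood above the controls with little spread, and the log2 change was 0.39 (SE 0.06, edgeR adjusted p = 8.09e-06). In Hep-3B NAA25 averaged 68.7 ± 2.23 CPM after siARD1 and 64.2 ± 1.79 CPM in controls, a change of 0.10 that did not pass (adjusted p = 0.278) although the groups did not overlap, and the difference between the lines was 0.27 (adjusted p = 0.0146). NAA20 (ENSG00000173418; chromosome 20, 20017116 to 20033655, plus strand), the NatB catalytic subunit, was at 92.6, 85.8 and 97.0 CPM in Huh-7 siARD1 libraries, against 76.2, 85.6 and 78.5 CPM in controls. The lowest siARD1 library lay just above the highest control, and the log2 change of 0.20 (adjusted p = 0.0140) was lost without control replicate 1 (0.0564), control replicate 3 (0.0666) or siARD1 replicate 3 (0.0539), and with upper-quartile scaling (0.13, 0.0838). In Hep-3B NAA20 averaged 50.5 ± 1.85 CPM after siARD1 and 50.7 ± 2.88 CPM in controls, a change of -0.01 (95% interval -0.15 to 0.14).

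In NatC it was the catalytic subunit that rose, and in Hep-3B. NAA30 (ENSG00000139977; chromosome 14, 57390544 to 57415917, plus strand) was at 46.5, 52.0 and 51.3 CPM after siARD1, against 35.9, 30.3 and 28.8 CPM in controls. The groups did not overlap, and the log2 change was 0.66 (SE 0.09, edgeR adjusted p = 4.99e-05). In Huh-7 it averaged 40.9 ± 6.28 CPM after siARD1 and 40.7 ± 2.62 CPM in controls, a change of 0.01 (95% interval -0.18 to 0.19), and the difference between the lines was -0.67 (SE 0.14, adjusted p = 6.38e-04). NAA35 (ENSG00000135040; chromosome 9, 85941146 to 86022298, plus strand), the NatC auxiliary subunit, averaged 73.8 ± 2.21 CPM in Huh-7 siARD1 libraries and 66.2 ± 2.51 CPM in controls. Its change of 0.16 passed narrowly (adjusted p = 0.0389) and was lost without control replicate 1 (0.0564), control replicate 3 (0.188), siARD1 replicate 2 (0.0691) or siARD1 replicate 3 (0.0915), and with upper-quartile scaling (0.09, 0.218). In Hep-3B NAA35 averaged 40.7 ± 2.17 CPM after siARD1 and 39.96 ± 2.16 CPM in controls (log2 change 0.03, 95% interval -0.13 to 0.18).

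NAA40 (ENSG00000110583; chromosome 11, 63938959 to 63957328, plus strand), the histone acetyltransferase NatD, was the member besides NAA10 that fell in both lines. In Hep-3B it was at 20.6, 20.45 and 22.9 CPM after siARD1, against 27.3, 29.3 and 31.1 CPM in controls, a log2 change of -0.45 (SE 0.09, edgeR adjusted p = 0.00124). In Huh-7 it was at 58.7, 60.2 and 65.5 CPM after siARD1, against 68.8, 71.3 and 73.7 CPM in controls, a change of -0.21 (SE 0.06, adjusted p = 0.00820). The groups did not overlap in either line. The Huh-7 change missed the threshold without control replicate 3 (-0.19, adjusted p = 0.0589). The difference between the lines was 0.22 and did not pass (adjusted p = 0.127), but did without Hep-3B control replicate 1 (0.29, adjusted p = 0.0410). Fits without 1 library gave 0.17 to 0.29, at adjusted p up to 0.282.

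**Figure D2:**
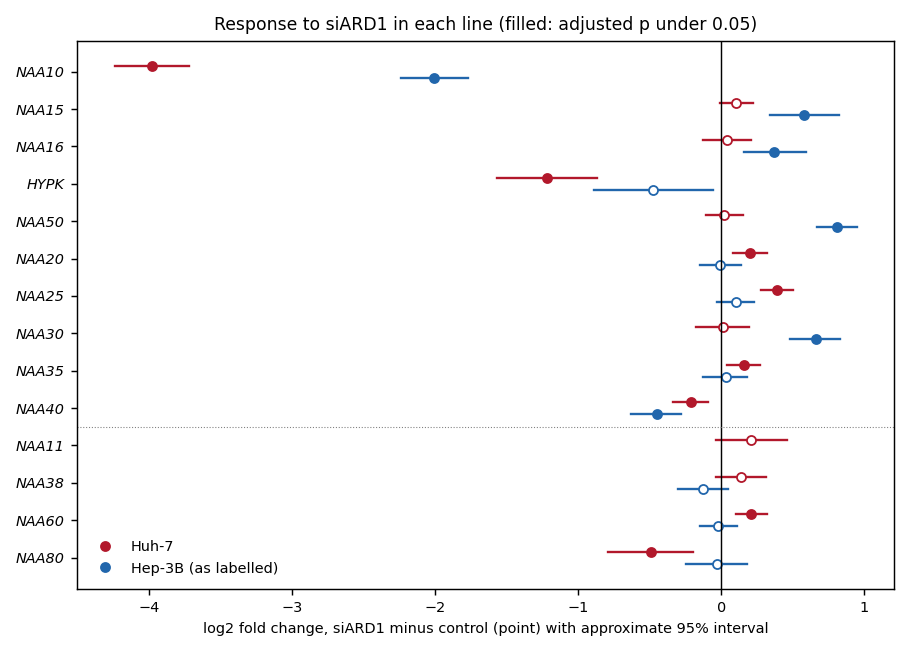
Log2 change (siARD1 minus control) of each of the 10 subunits and, below the dotted line, of 4 other Nat genes, in Huh-7 and in Hep-3B, with bars for the approximate 95% interval; filled points passed an adjusted p under 0.05 and open points did not. NAA10 is at -3.98 in Huh-7 and -2.01 in Hep-3B, while NAA50, NAA30 and NAA15 lie near 0 in Huh-7 and at 0.81, 0.66 and 0.58 in Hep-3B.

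Counted together, 3 members rose in Huh-7 (NAA20, NAA25, NAA35), 3 fell (NAA10, HYPK, NAA40) and 4 did not pass, so 6 of 10 were called beside 40.1% of all genes (21.2% higher and 18.9% lower). In Hep-3B 4 rose (NAA15, NAA16, NAA50, NAA30), 2 fell (NAA10, NAA40) and 4 did not pass, so again 6 of 10 were called, beside 32.2% (16.8% higher and 15.3% lower). These counts include NAA10, whose fall was set by the siRNA. Of the 9 other members, 3 rose and 2 fell in Huh-7, and 4 rose and 1 fell in Hep-3B. The median log2 change of these 9 was 0.04 in Huh-7 and 0.10 in Hep-3B, against -0.01 over all genes in each line. Groups did not overlap for 6 of 10 members in Huh-7, where 50.0% of all genes did not. In Hep-3B they did not for 7 of 10, where 45.0% of all genes did not. NAA10 is among these members in each line. The response differed between the lines for 6 of 10 members (NAA10, NAA15, HYPK, NAA50, NAA25, NAA30), beside 31.4% of all genes (15.2% higher and 16.2% lower in Huh-7). Of these 6, 5 had the lower response in Huh-7 and NAA25 the higher. With 3 libraries against 3, the exact permutation test of a single gene cannot go below p = 0.1, so these calls rest on the spread that edgeR pools over genes. Without Huh-7 control replicate 3, 3 of 10 members were called in Huh-7.

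Of 4 other Nat genes, 1 rose and 1 fell in Huh-7 (2 of 4 called, beside 40.1% of all genes), and none of the 3 tested in Hep-3B passed. NAA38, the third NatC subunit, did not pass in either line (log2 change 0.14 in Huh-7 and -0.13 in Hep-3B, edgeR adjusted p = 0.241 and 0.312). NAA60, which acts at the Golgi membrane, rose in Huh-7 to 84.9 ± 1.95 CPM after siARD1, against 73.4 ± 3.10 CPM in controls (0.21, adjusted p = 0.00522), and stood at -0.02 in Hep-3B. NAA80, the actin N-terminal acetyltransferase, fell in Huh-7 to 5.22 ± 0.762 CPM after siARD1, against 7.37 ± 0.731 CPM in controls (-0.49, adjusted p = 0.0126). The NAA80 call was lost without control replicate 1 (0.0621) or siARD1 replicate 1 (0.0709). In Hep-3B NAA80 was at -0.03 (adjusted p = 0.843).

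With the control siRNA, NAA10 and NAA15 were higher in Huh-7 and HYPK was lower. On the scale of the joint fit, 8 of 10 members differed between Huh-7 controls and Hep-3B controls, 7 of them higher in Huh-7, beside 80.7% of 17122 genes (40.7% higher and 40.0% lower in Huh-7), so the count of members was at the background. NAA10 at 165 and 58.8 CPM (log2 difference 1.49, SE 0.13) and NAA15 at 108 and 39.25 CPM (1.45, SE 0.11) had the largest differences, each given with Huh-7 ahead of Hep-3B. NAA40 followed at 67.7 and 31.1 CPM (1.12), then NAA16 at 24.2 and 13.4 CPM (0.85), NAA50 at 243 and 154 CPM (0.65), NAA35 at 62.8 and 42.5 CPM (0.56) and NAA20 at 76.0 and 53.9 CPM (0.50). HYPK was lower in Huh-7, at 5.61 and 9.003 CPM (-0.69, adjusted p = 0.00155 by edgeR). NAA25 at 67.3 and 68.3 CPM and NAA30 at 38.7 and 33.7 CPM did not pass (adjusted p = 0.755 and 0.0732). The NAA30 difference passed without Huh-7 control replicate 1 (0.28, adjusted p = 0.0208), without Hep-3B control replicate 1 (0.31, 0.00801), without either of Huh-7 siARD1 replicates 2 (0.0399) and 3 (0.0332), and without either of Hep-3B siARD1 replicates 2 (0.0414) and 3 (0.0420); the other such fits reached an adjusted p of 0.276. Each line has its own table, so the line and anything else that differed between the tables cannot be told apart.

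Levels of different genes were compared per kilobase of annotated exon. In Huh-7 controls NAA50 stood at 37.7 ± 2.93 CPM per kilobase, NAA10 at 34.8 ± 4.92 and NAA20 at 32.0 ± 1.99, and neighbours in this order did not differ beyond their spread, while NAA50 and NAA20 differed by more than the SD of either. NAA35 (17.3), NAA40 (12.7), NAA15 (11.1), NAA25 (6.65), NAA30 (5.05), NAA16 (4.13) and HYPK (0.878 CPM per kilobase) followed, each separated from the next by more than its SD. In Hep-3B controls NAA50 (24.0 ± 2.52) and NAA20 (22.7 ± 1.301) led within their spread, and NAA10 (12.4 ± 1.31) and NAA35 (11.7 ± 0.620) came next and did not differ beyond theirs. NAA25 (6.75) and NAA40 (5.85) stood above NAA30 (4.40 ± 0.532) and NAA15 (4.04 ± 0.758), which overlapped, and NAA16 (2.28) and HYPK (1.41 CPM per kilobase) were lowest. After siARD1 NAA10 ranked 9 of 10 in Huh-7 and 8 of 10 in Hep-3B by exon length, but 7 and 6 of 10 by the longest transcript. The order depends on the length: with the longest transcript NAA10 was first in Huh-7 controls, at 93.1 CPM per kilobase, and second in Hep-3B controls, at 33.2 (its exons together cover 4742 bases, and its longest transcript 1772). The level of HYPK per kilobase is also uncertain, since 39% of its 6393 exon bases are shared with SERF2. Its coding sequence has 390 bases.

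NAA10 supplied 2.36 ± 0.391% of the summed per-kilobase level of the 5 catalytic subunits (NAA10, NAA50, NAA20, NAA30 and NAA40) after siARD1 in Huh-7, against 28.4 ± 2.33% in controls. In Hep-3B its share was 3.87 ± 0.641% after siARD1 and 18.0 ± 2.47% in controls. NAA50 held 53.3 ± 0.685% in Hep-3B siARD1 libraries and 34.5 ± 2.43% in controls, and NAA20 held 39.4 ± 3.15% in Huh-7 siARD1 libraries and 26.2 ± 2.29% in controls. Shares add up to a fixed whole, so a smaller NAA10 share raises the others by arithmetic. With the length of the principal transcript, chosen after the data were seen, the NAA10 share was 4.32% after siARD1 and 42.9% in controls in Huh-7, and 7.56% and 29.1% in the same order in Hep-3B.

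**Figure D3:**
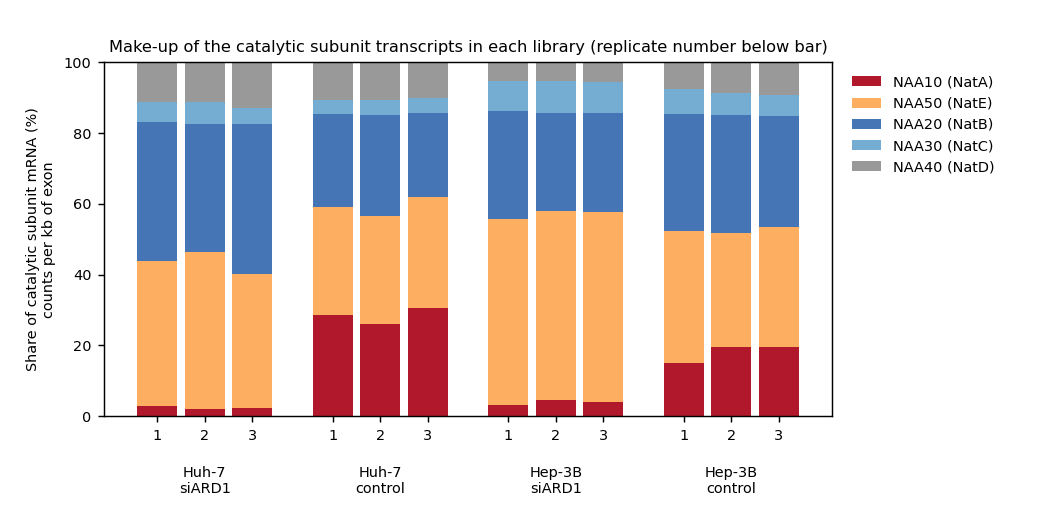
Share of each of the 5 catalytic subunits in their summed level per kilobase of exon, in percent, with a bar for each of the 12 libraries and siARD1 left of control in each line. The NAA10 part averages 2.36% in Huh-7 siARD1 libraries, against 28.4% in controls, and 3.87% in Hep-3B siARD1 libraries, against 18.0% in controls.

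Ratios of partners to NAA10 rose with the knockdown. NAA10, the siRNA target, is the divisor, so its fall raises each ratio by arithmetic. Per kilobase of exon, NAA15 stood at 5.55 ± 1.19 times NAA10 in Huh-7 after siARD1 and at 0.322 ± 0.0282 times in controls, a 17-fold change of the ratio. In Hep-3B the ratio was 2.02 ± 0.396 after siARD1 and 0.333 ± 0.101 in controls, a 6.16-fold change. The mean of NAA15 to NAA10 was thus close in the controls of both lines, although each gene was higher in Huh-7. By library it was 0.325, 0.348 and 0.292 in Huh-7 controls and 0.448, 0.258 and 0.294 in Hep-3B controls. The ratio was not tested between the lines. NAA50 to NAA10 changed 16.1-fold in Huh-7 and 7.21-fold in Hep-3B, and HYPK to NAA10 6.78-fold and 2.90-fold. In Huh-7 the log2 change of NAA50 itself was 0.02 and that of HYPK -1.22, so a raised ratio is no rise of the partner. The control ratio of NAA50 to NAA10 was 1.09 in Huh-7 and 1.962 in Hep-3B by exon length, but 0.428 and 0.769 by the longest transcript. The scaffold mix, NAA16 to NAA15, overlapped between groups, at 0.354 ± 0.0156 after siARD1 and 0.373 ± 0.0323 in controls in Huh-7 (exact permutation p = 0.4, two-sided) and at 0.490 ± 0.0311 and 0.572 ± 0.0585 in the same order in Hep-3B (exact permutation p = 0.2). In NatC of Hep-3B, NAA30 to NAA35 was 0.586 ± 0.0557 after siARD1 and 0.379 ± 0.0671 in controls, without overlap (exact permutation p = 0.1, the smallest that 3 against 3 allow).

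The genes whose levels ran most like a member's were found by Pearson's r over the 12 libraries, after centring each line on its own mean, among 9771 genes. Such an r carries the difference between siARD1 and control in each line, and it is given as a description. NAA10 ran most like UBE2H (0.979), a ubiquitin-conjugating enzyme, SFXN3 (0.979), a mitochondrial carrier, and the noncoding RNA OLMALINC (0.975), which had log2 changes of -0.43, -1.04 and -1.60 in Huh-7 and -0.24, -0.51 and -0.80 in Hep-3B. NAA50 ran most like PMS1 (0.993), a mismatch repair protein, EIF5A2 (0.988), a translation factor, and CBX3 (0.987), a heterochromatin protein. These had log2 changes of -0.03, 0.03 and -0.02 in Huh-7 and 1.06, 1.10 and 0.66 in Hep-3B. NAA15 ran most like PPP2R5E (0.970), a phosphatase subunit, BROX (0.962) and the deubiquitinase USP12 (0.961).

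Genes for other proteins that act on N termini or meet the nascent chain were followed as lists, some of them mitochondrial. Of 6 genes for initiator methionine removal and N-myristoylation, 4 rose and 1 fell in Huh-7 (median log2 change 0.22), while 0 rose and 2 fell in Hep-3B (median -0.16), against a median of -0.01 over all genes in each line. So 5 of 6 were called in Huh-7, beside 40.1% of all genes, and 2 of 6 in Hep-3B, near the background of 32.2%. In Huh-7 the methionine aminopeptidases METAP2 (0.24) and METAP1D (0.26), the mitochondrial deformylase PDF (0.49) and the myristoyltransferase NMT1 (0.20) rose, and NMT2 (-0.26, named after its value was seen) fell. In Hep-3B METAP1D (-0.46) and NMT1 (-0.21) fell. All of these passed edgeR's test in their line; the differences between lines were not tested.

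Of 14 genes of the N-degron pathways, which read protein N termini for degradation, 4 rose and 1 fell in Huh-7 (median 0.05), and 3 rose and 1 fell in Hep-3B (median -0.02). KCMF1 (0.49), which works with the ubiquitin ligase UBR4 (0.24), rose in Huh-7 with BIRC6 (0.31), a ligase that guards against apoptosis, and UBR2 (0.32). NTAQ1 (-0.36), an N-terminal glutamine amidase named after its value was seen, fell there. In Hep-3B UBA6 (0.68), the activating enzyme that serves BIRC6, ZYG11B (0.39), a receptor for N-terminal glycine, and UBR2 (0.17) rose, and MARCHF6 (-0.16), a ligase of the endoplasmic reticulum, fell. With 5 of 14 called in Huh-7 and 4 of 14 in Hep-3B, the list lay near the backgrounds of 40.1% and 32.2%.

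Of 10 factors that meet the nascent chain at the ribosome, 5 rose and 1 fell in Huh-7 (median 0.17), and 2 rose and 3 fell in Hep-3B (median 0.01). So 6 of 10 were called in Huh-7, beside 40.1% of all genes, and 5 of 10 in Hep-3B, beside 32.2%. In Huh-7 the ribosome-associated chaperones DNAJC2 (0.42) and HSPA14 (0.33) and the signal recognition particle subunit SRP68 (0.31) rose, while SRP9 (-0.47) of the same particle fell. In Hep-3B both subunits of the nascent polypeptide-associated complex fell, BTF3 by 0.30 and NACA by 0.21 on the log2 scale. SRP68 (-0.26) fell and SRP19 (0.74) rose there. SRP9 stood at 0.83 in Hep-3B and did not pass (edgeR adjusted p = 0.0562).

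**Figure D4:**
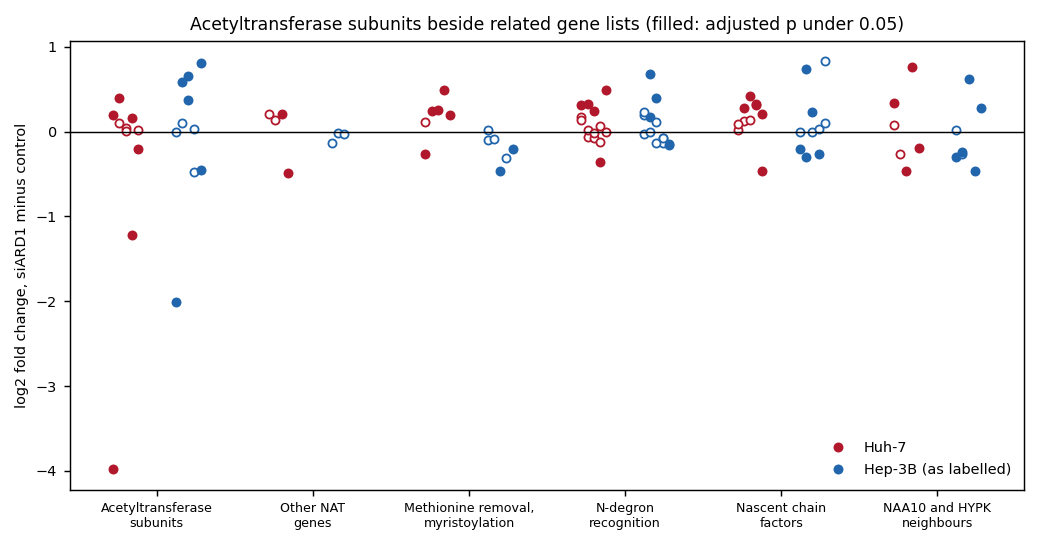
Log2 change (siARD1 minus control) of the 10 subunits and of the genes of each related list in Huh-7 and Hep-3B, the last list being the genes next to NAA10 and HYPK; each point is a gene, filled where its adjusted p was under 0.05. In Huh-7 the methionine and myristoylation list has its median at 0.22, and in Hep-3B at -0.16.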

How the data were processed

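RNA of 12 libraries, 3 in each of 4 groups, was sequenced. The authors deposited 1 table of raw read counts per gene for each cell line. Reads were trimmed with cutadapt 4.6 and aligned with STAR 2.7.11b to GRCh38, per the submitters' processing notes; the sources used here do not name the counting tool, its annotation or its handling of strand. Replicates are numbered samples, and whether they were separate cultures is not given, so p-values measure the spread between these samples, which may be technical. Depth was 17327615 to 25960237 counts per library.

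Counts were tested with edgeR 4.0.16 (R 4.3.3; TMM factors, filterByExpr with a minimum count of 10, robust quasi-likelihood fit, Benjamini-Hochberg over all genes tested, threshold 0.05). Each line was fitted alone, and differences between lines came from 1 fit of 12 libraries. SE was derived from the F statistic, and 95% intervals are 1.96 SE. Plotted and printed CPM use TMM-scaled library sizes. The fit was tested on simulated counts with known changes, and small differences between the lines were only partly recovered. Alternatives were DESeq2 1.42.0, limma 3.58.1 (voom), other scalings, filters and thresholds, a replicate block and leaving out each library. All 10 members were named whatever their result; related genes were named by list, with up to 4 called genes of lowest p. The members and lists were chosen with earlier results of these data known. Exon positions and lengths came from GENCODE v29, promoters from RefSeq GRCh38.p14.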

Additional observations from a re-analysis of the deposited data

Results flagged for a closer look

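The response to siARD1 differed between Huh-7 and Hep-3B for 7 Nat genes, by the edgeR test of the difference itself. These were 6 of the 10 members, and NAA80 of the 3 other Nat genes tested, beside 31.4% of 17122 genes. The log2 difference (Huh-7 response minus Hep-3B response) was -2.0 for NAA10, -0.81 for NAA50, -0.76 for HYPK, -0.67 for NAA30, -0.49 for NAA15 and -0.48 for NAA80, and 0.27 for NAA25. NAA10 fell in both lines. NAA50, NAA30 and NAA15 passed the test in Hep-3B and not in Huh-7, while HYPK, NAA80 and NAA25 passed in Huh-7 and not in Hep-3B. The HYPK and NAA80 differences were close to the threshold (edgeR adjusted p = 0.0466 and 0.0498). Each was lost in 8 of the 12 fits that left out 1 library, at adjusted p up to 0.154 for HYPK and 0.165 for NAA80. Hepatoma markers summed to 26420 CPM or more in every Huh-7 library and to at most 523.4 CPM in every library labelled Hep-3B; their part in these differences was not tested.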

How the results depend on the processing

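No called difference of a named Nat gene reversed its direction under any alternative run. NAA10 stayed past the threshold in all of them, at log2 changes of -4.13 to -3.86 in Huh-7 and -2.11 to -1.88 in Hep-3B, as did NAA50, NAA30, NAA15 and NAA40 in Hep-3B and NAA25 and HYPK in Huh-7. At a false discovery rate of 0.01, 3073 genes were called in Hep-3B and 3 members differed between the lines in their response, since that threshold is stricter. Leaving out 1 library gave 3 to 6 called members in Huh-7, the lowest without control replicate 3. NAA35 in Huh-7 was lost in 11 of 16 alternatives and NAA20 in 5. HYPK in Hep-3B passed with no filter (adjusted p = 0.0130) and with all 4 groups in one fit (0.0499). The HYPK difference between the lines was lost in 12 of 21 alternatives and that of NAA80 in 14; the cause was not tested. Upper-quartile scaling moved the median of all genes between the controls of the lines to 0.126, against 0.026 with TMM. In Huh-7, correlations of deviations were -0.06 to 0.05 between same-numbered siARD1 and control libraries, and -0.10 to 0.11 between differently numbered ones. In Hep-3B they were 0.03 to 0.07 for same numbers and -0.05 to -0.01 for different numbers. These values are small, and whether equal numbers mark paired cultures in Hep-3B was not tested. With the replicate block, NAA35 in Huh-7 missed the threshold (0.16, adjusted p = 0.0510), HYPK in Hep-3B passed it (-0.47, 0.0276) and the NAA80 difference between the lines missed it (-0.47, 0.0618). HYPK, at 146 counts over the Huh-7 siARD1 libraries, is the member most limited by depth.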

Other observations

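Genes next to NAA10 on chromosome X did not fall with it as a group. IRAK1, a kinase of interleukin-1 and Toll-like receptor signalling, rose in Huh-7 to 129 CPM after siARD1, against 76.5 CPM in controls (log2 change 0.76, edgeR adjusted p = 7.89e-10), and in Hep-3B to 447 CPM, against 368 CPM (0.28, adjusted p = 0.00145). TMEM187 fell in both lines (-0.47 in Huh-7 and -0.46 in Hep-3B, adjusted p = 0.0342 and 0.0236). HCFC1, a transcriptional coregulator, rose in Huh-7 (0.34) and fell in Hep-3B (-0.30), a difference between the lines of 0.62 (adjusted p = 1.13e-06). L1CAM, a cell adhesion molecule, rose in Hep-3B (0.62, adjusted p = 1.79e-05) and was below the filter in Huh-7. RENBP and AVPR2 were below the filter in both lines. At the HYPK locus MFAP1, a splicing factor, fell in Hep-3B (-0.24, adjusted p = 0.0307) and stood at 0.08 in Huh-7.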
